A study of Homo sapiens with 12 samples.

Results

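Palbociclib, which blocks the cell cycle kinases CDK4 and CDK6, was compared with DMSO in senescent IMR90 cells, a widely used human lung fibroblast line of wild-type genotype. The comparison held 3 palbociclib and 3 DMSO libraries, 6 of the 12 libraries of the series, chosen by the group names in the columns of the deposited table. All 6 came from cells that had received 20 Gy of ionizing radiation over 10 min and were harvested on day 11 after it. Palbociclib was added at 2 µM on days 4, 6, 8 and 10, so the drug met cells that had already been irradiated. The DMSO cells carried the same irradiation and harvest day. The other libraries were 3 from untreated proliferating IMR90 cells and 3 from irradiated cells given the Janus kinase inhibitor ruxolitinib at 2 µM on the same days, and they serve below only as side values. What was sequenced was poly(A)-captured RNA from TRIzol extracts of a single cell line at a single dose and harvest day. The labels do not say whether the 3 libraries of a group came from separate cultures, so p-values measure only the spread between these libraries, which may be technical. In bulk RNA, fewer cells of a kind and less RNA per cell cannot be told apart.

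CDK4 and CDK6, bound to D-type cyclins, phosphorylate the retinoblastoma protein RB, which then lets go of the E2F factors that switch on genes for DNA replication. The genes of mitosis follow later through a promoter element called CHR and the factors B-MYB and FOXM1. Senescent fibroblasts have left the cell cycle for good, grow large, and secrete chemokines, cytokines, proteases and growth factors. After DNA damage they often also switch on interferon-stimulated genes. The comparison asks which transcripts rise and which fall when CDK4 and CDK6 are inhibited in such cells.

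Over the listed genes the recovered reads ranged from 14106799 to 16503624 in the DMSO libraries and from 17575263 to 21762412 in the palbociclib libraries. Of 16383 listed genes, 11242 had a mean of at least 10 normalized counts over the 12 libraries and were tested. PTAFR lay just inside that minimum with a mean of 10.0087 normalized counts, and DLX1 just outside it with 9.99994. Differences below are palbociclib minus DMSO on log2(normalized count + 1), and a called gene is one with an adjusted p below 0.05 in limma. By that rule 2927 genes were higher (26% of those tested) and 2505 lower (22.3%). The table was normalized by the authors, and its columns still summed to 17.0% more with palbociclib than with DMSO. When every library was scaled to the same total, 940 genes were higher (8.36%) and 5170 lower (46%), and the median of all tested genes moved from 0.02 to -0.21. All 940 were also called higher as deposited. Of the 2927 raised genes, 1984 were not called at the same total and 3 were called lower. The scaling mattered less for large differences. Of 68 genes that rose at least 2-fold, 64 were also called higher at the same total, and all 606 that fell at least 2-fold were also called lower. Which scaling is right cannot be settled from the table, so each group of raised genes is given both ways.

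The first principal component of the 6 libraries held 72.1% of the variance and separated the groups. The second held 11.6% and set the palbociclib libraries A119 and A120 apart, at 20.1 and -21.8, with A121 at 2.37. The median absolute log2 difference between A119 and A120 was 0.182, beside 0.0728 to 0.0772 between DMSO libraries. In A120 long genes were lower and short genes higher than in A119, with a median log2 difference of 0.21 in the shortest of 4 equal bins of gene length and -0.18 in the longest. Without A120, 2698 genes were higher (24%) and 2234 lower (19.9%). As deposited, every palbociclib library lay above every DMSO library for 29.1% of tested genes and below for 25.7%.

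Of the genes that mark the comparison, the fall was steepest in MKI67 (Entrez gene 4288), which encodes the proliferation antigen Ki-67. Its normalized counts were 977, 1017 and 1038 with DMSO and 88.5, 71.2 and 87.9 with palbociclib. The groups were far apart, at a log2 difference of -3.60 (95% interval -3.83 to -3.38). The DMSO level was itself far below the 13062 ± 2276 normalized counts (SD, n = 3) of proliferating cells. CXCL8 (3576), the neutrophil chemokine interleukin-8, was at 1564, 1674 and 1835 with DMSO and 166, 205 and 208 with palbociclib. The groups did not overlap, and the level with palbociclib stayed above the 72.1 ± 9.91 normalized counts (SD, n = 3) of proliferating cells. PSAT1 (29968), the aminotransferase of serine synthesis, was at 969, 987 and 887 with DMSO and 3337, 3316 and 3388 with palbociclib. The 3 palbociclib libraries sat close together and far above DMSO, at a log2 difference of 1.82 as deposited and 1.59 at the same total. They were near the level of proliferating cells, 3451 ± 45.7 normalized counts (SD, n = 3). INHBB (3625), the beta B subunit of activin and inhibin, was at 65.3, 67.5 and 89.0 with DMSO and 273, 286 and 271 with palbociclib. Its palbociclib libraries were again tightly grouped above all DMSO libraries, with a log2 difference of 1.90 (SE 0.19, adjusted p 8.5e-07), while proliferating cells held 69.6 ± 18.9 normalized counts (SD, n = 3), at the DMSO level.

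**Figure D1:**
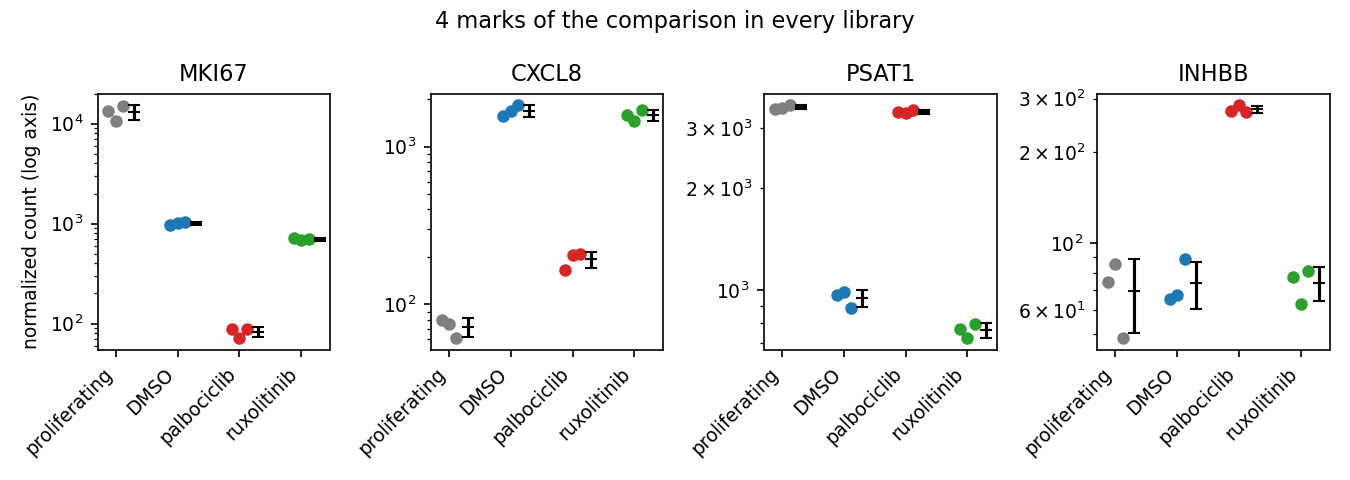
Normalized counts (log axis) of MKI67, CXCL8, PSAT1 and INHBB in every library of the 4 groups; points are libraries, and the black marks give the mean and SD of 3 libraries. The palbociclib points lie below all DMSO points for MKI67 and CXCL8 and above them for PSAT1 and INHBB.

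The drug's own targets differed from each other. CDK6 (1021) was at 5293, 5165 and 5462 with DMSO and 9828, 7281 and 8817 with palbociclib. Every palbociclib library was higher, and the gene rose by 0.69 on the log2 scale (adjusted p 1.81e-05), or 0.47 at the same total. CDK4 (1019) was at 1018, 997 and 1057 with DMSO and 975, 1099 and 977 with palbociclib. The groups overlapped, with a log2 difference of -0.01 (95% interval -0.13 to 0.11, adjusted p 0.885), although at the same total CDK4 was called lower at -0.24 (adjusted p 0.0031).

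The 15 largest increases that also stood at the same total had log2 differences from 1.41 to 1.92, and INHBB and PSAT1 were among them. Only genes whose palbociclib and DMSO libraries did not overlap could be picked. PAPPA2 (60676), a protease that cleaves insulin-like growth factor binding proteins, had the largest, at 31.7, 29.6 and 39.3 with DMSO and 136, 104 and 152 with palbociclib. The lowest palbociclib library was well above the highest DMSO library, and the log2 difference was 1.92 (SE 0.23). IGFBP3 (3486), which binds insulin-like growth factors in the extracellular fluid, was at 27146, 29143 and 26933 with DMSO and 82528, 83613 and 84154 with palbociclib. The groups did not overlap, with a log2 difference of 1.59, and the palbociclib libraries were far above the 16297 ± 481 normalized counts (SD, n = 3) of proliferating cells. ADM2 (79924), the peptide hormone adrenomedullin 2, was at 48.5, 22.5 and 35.8 with DMSO and 127, 106 and 155 with palbociclib. The DMSO libraries were uneven, but the palbociclib libraries lay above them all (log2 difference 1.88, adjusted p 6.88e-06). MYCT1 (80177) was at 31.7, 35.5 and 28.9 with DMSO and 125, 119 and 121 with palbociclib. Its palbociclib libraries agreed closely, at a log2 difference of 1.90.

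The rest of the 15 held NRXN3, a synaptic adhesion protein (1.72), TNFRSF10D, a decoy receptor for the death ligand TRAIL (1.70), MEGF6, a protein with repeats of the epidermal growth factor type (1.58), NPAS1, a transcription factor (1.46), and PDE11A, a phosphodiesterase that degrades cyclic nucleotides (1.41). THBS2, the matricellular thrombospondin 2 (1.52), the secreted metalloprotease ADAMTS8 (1.51) and COL15A1, a collagen chain of basement membrane zones (1.43), added matrix genes. CBS (875), the first enzyme from homocysteine to cysteine, was at 46.5, 61.6 and 86.7 with DMSO and 133, 398 and 149 with palbociclib. Library A120 alone stood apart among the palbociclib libraries, and without it the log2 difference was 1.15 in place of 1.65. CBS has a near-identical copy, CBSL, so its counts are uncertain. All 15 were also called without A120 and by edgeR, which called 23.8% of tested genes higher. These fits use the libraries that picked the 15, so their calls are no independent support.

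**Figure D2:**
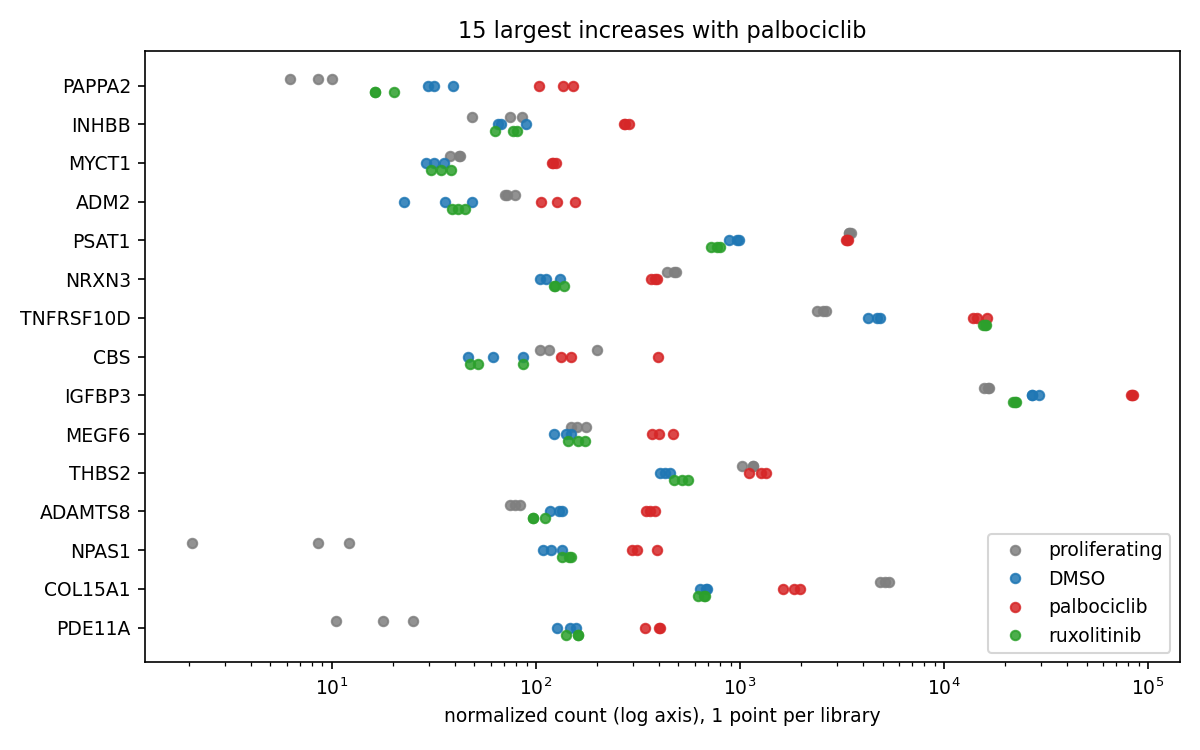
Normalized counts (log axis) of the 15 genes with the largest increases, 1 point per library, in proliferating, DMSO, palbociclib and ruxolitinib groups. Palbociclib points lie to the right of all DMSO points for each gene, as the choice of genes required. Only for TNFRSF10D do the ruxolitinib points lie with them.

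Beside these, the values of the JAK inhibitor were taken from the same fit and share the DMSO libraries. Of the 15 genes, 1 was called higher with ruxolitinib than with DMSO and 3 lower, where 1.1% and 3.42% of all tested genes were so called. The 15 were picked for their rise in these same palbociclib libraries, so the direct test between the inhibitors only describes them. In it, 14 of the 15 were higher with palbociclib, where 22.8% of all tested genes were. The exception was TNFRSF10D. It was at 4233, 4838 and 4670.4 with DMSO and 16296, 14524 and 13867 with palbociclib, and at 16073, 15609.9 and 15933 with ruxolitinib. All treated libraries of both drugs were above all DMSO libraries, and the difference between the drugs was -0.09 on the log2 scale (adjusted p 0.257). It was called without A119 (-0.16, adjusted p 0.0439) and at the same total (-0.30).

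PAPPA2 and IGFBP3 belong to the system that controls insulin-like growth factors, in which binding proteins hold the ligands, pappalysins cut the binding proteins, and stanniocalcins inhibit the pappalysins. The list of this system did not move as a block. Of its 17 tested genes, 7 were higher and 6 lower, or 4 and 7 at the same total. The shares of all tested genes were 26% and 22.3%, or 8.36% and 46%. IGFBP7 rose by 0.70 on the log2 scale and IGFBP4 by 0.43. The related protease PAPPA (5069) was at 4592, 4349 and 4894 with DMSO and 3412, 2275 and 3069.9 with palbociclib. All palbociclib libraries were lower, opposite to PAPPA2, at a log2 difference of -0.68. IGFBP1, the lowest of the list, fell by 2.34, the pappalysin inhibitor STC1 by 1.34, and the ligand IGF2 by 0.99. IGF2 was at 180.4, 94.1 and 172 with palbociclib against 299.9, 259 and 298 with DMSO, so its groups did not overlap although the palbociclib libraries were uneven.

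INHBB stood out in the list of transforming growth factor beta and activin genes as well. Of 25 tested, 9 were higher and 6 lower as deposited, and 5 and 13 at the same total, with a median of 0.04. Of all tested genes, 26% were higher and 22.3% lower, and 8.36% and 46% at the same total. FSTL3 (10272), a secreted inhibitor of activins, was at 1698, 1836 and 1608 with DMSO and 3142, 3962 and 3273 with palbociclib. Its groups were well separated, at a log2 difference of 1.01. The ligand TGFB2 rose by 0.54. The inhibitory SMAD7 fell by 0.53, and INHBE, the lowest of the list, by 0.68. INHBA, another activin beta subunit, had a log2 difference of -0.19 (adjusted p 0.0159), and without A118 or A121 it was not called (adjusted p 0.0681 and 0.0858).

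Most genes of amino acid supply were called higher as deposited, though not at the same total, and the lists differed in how evenly they rose. Cells short of amino acids raise the factor ATF4, which switches on enzymes that make serine, glycine and asparagine, transporters that import amino acids, and the synthetases that load tRNAs. Over the 4 lists of such genes, 81 genes were tested. Of these, 53 were higher and 14 lower, with a median log2 difference of 0.33 beside 0.02 for all tested genes. At the same total, 34 were higher and 20 lower, with a median of 0.11 beside -0.21. The shares over all tested genes were 26% higher and 22.3% lower as deposited, and 8.36% and 46% at the same total.

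ASNS (440), which makes asparagine, is shown with its promoter because it carries the element that the ATF4 family reads. The sequence is that of RefSeq (GRCh38.p14), the 250 bases before the gene's start, chr7:97872409-97872658 on the minus strand, with the match to TGATGNAA (the C/EBP-ATF element, CARE) in capitals, 68 bases before the start.
ASNS: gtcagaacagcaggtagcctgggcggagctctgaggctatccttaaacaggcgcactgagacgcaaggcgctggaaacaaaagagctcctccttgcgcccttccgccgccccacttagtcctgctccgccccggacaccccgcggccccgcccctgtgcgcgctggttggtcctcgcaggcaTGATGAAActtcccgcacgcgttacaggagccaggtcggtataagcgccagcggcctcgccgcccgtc
On either strand this motif was found in 7 of the 65 promoters matched to the 4 lists (10.8%), in 1.41% of the 9163 promoters of tested genes and in 3.19% of 27305 promoters in all. The lists were drawn up around such genes, so their share describes the lists. Among genes higher at both scalings the motif was in 12 of 766 promoters (1.57%). It was in 3 of 51 (5.88%) for genes that rose at least 2-fold and 13 of 460 (2.83%) for those that fell as much. A match is a description of letters and was not tested as a site. ASNS was at 675, 662 and 725 with DMSO and 1571, 1649.7 and 1741 with palbociclib. All palbociclib libraries were far above the DMSO libraries, with a log2 difference of 1.27 (SE 0.07, adjusted p 1.13e-09).

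In serine synthesis, PHGDH, PSAT1 and PSPH act in that order, and all rose. PHGDH was at 639, 649.9 and 572 with DMSO and 1023, 1285 and 1179.6 with palbociclib, PSPH at 283, 304 and 297 with DMSO and 415, 482 and 523 with palbociclib. For both enzymes the groups were apart, at log2 differences of 0.90 and 0.68. The mitochondrial folate enzymes that use serine rose with them, SHMT2 by 0.59 and MTHFD2 by 0.89. MTHFD2 was at 1508, 1647 and 1589.9 with DMSO and 2941, 3031 and 2826 with palbociclib, with no overlap. The cytosolic counterpart SHMT1 went the other way, at 77.2, 72.2 and 76.3 with DMSO and 38.7, 52.5 and 47.1 with palbociclib. All its palbociclib libraries were lower, by 0.70 on the log2 scale. Of 19 serine and one-carbon genes tested, 10 were higher and 5 lower, beside 26% and 22.3% of all tested genes. At the same total the counts were 7 and 7, where 8.36% of all tested genes were higher and 46% lower. The list's median relative to that of all tested genes was 0.23 under both scalings.

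Over all tested genes, 26% were higher and 22.3% lower (8.36% and 46% at the same total). Among 20 amino acid transporters, 11 were higher and 4 lower (7 and 5 at the same total). Their median relative to all tested genes was 0.23, and 0.14 with quantile normalization. SLC7A5 (8140), the light chain of the transporter for large neutral amino acids, was at 2513, 2448 and 2568 with DMSO and 5853, 5697 and 6007 with palbociclib. The palbociclib libraries differed little and reached the 5993 ± 267 normalized counts (SD, n = 3) of proliferating cells (log2 difference 1.22). Its partner chain SLC3A2 was at 3319.9, 3154 and 3119.8 with DMSO and 3319, 3928 and 3649.9 with palbociclib. Here the groups overlapped, the log2 difference was 0.18 (adjusted p 0.0216), and it was not called at the same total (-0.05) or without any 1 of A117, A118, A120 and A121 (adjusted p 0.0587 to 0.088). The cystine transporter SLC7A11 rose by 0.76 and the glutamine transporter SLC1A5 by 0.65. The glutamate transporter SLC1A3 fell by 2.82, from 28.7 ± 11.2 to 3.24 ± 1.81 normalized counts (SD, n = 3), a few reads per library.

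The tRNA synthetases differed by compartment. Of 19 cytosolic synthetases, 17 were higher and 0 lower (9 and 1 at the same total), with a median log2 difference of 0.36. Relative to all tested genes this median was 0.34, and 0.17 with quantile normalization. Of 16 mitochondrial ones, 2 were higher and 3 lower (2 and 9), with a median of -0.03. The shares over all tested genes were 26% higher and 22.3% lower (8.36% and 46% at the same total). GARS1 (2617), which loads glycine, was at 5608, 5698 and 5384 with DMSO and 9896, 9966 and 9729 with palbociclib. It rose by 0.83 with little spread. CARS1, for cysteine, had the largest difference at 0.93, from uneven DMSO libraries at 58.4, 78.1 and 39.3 normalized counts, and it was not called without A118 (0.68, adjusted p 0.0796). RARS2 (0.64) and IARS2 (0.34) were the mitochondrial synthetases that rose.

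The regulators of the integrated stress response, the signalling arm that ends in ATF4, went in opposite directions. ATF4 (468) was at 4333, 4574 and 4194 with DMSO and 5869.6, 7044 and 6166 with palbociclib, and NUPR1 (26471), a stress-induced nuclear protein, at 629, 666 and 642 with DMSO and 1422, 1909 and 1500.3 with palbociclib. Both groups of libraries were apart, at log2 differences of 0.54 and 1.31. PCK2, the mitochondrial enzyme that makes phosphoenolpyruvate, rose by 1.28. ATF3 (467), a factor that the same arm induces, was at 1150.2, 1138 and 1169 with DMSO and 194, 199 and 201 with palbociclib. It fell by 2.54 with almost no spread between palbociclib libraries. DDIT3, the factor CHOP, fell by 0.82, and PPP1R15A, the phosphatase subunit that ends the response, by 0.63. Of 25 genes in this list, 16 were higher and 6 lower as deposited, and 12 and 8 at the same total. The shares over all tested genes were 26% and 22.3% as deposited, and 8.36% and 46% at the same total. The list's median relative to all tested genes was 0.34, and 0.23 with quantile normalization. In the direct test, 16 of these 25 genes were higher with palbociclib than with ruxolitinib and 3 lower. Of all tested genes, 22.8% were higher and 17.6% lower there.

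**Figure D3:**
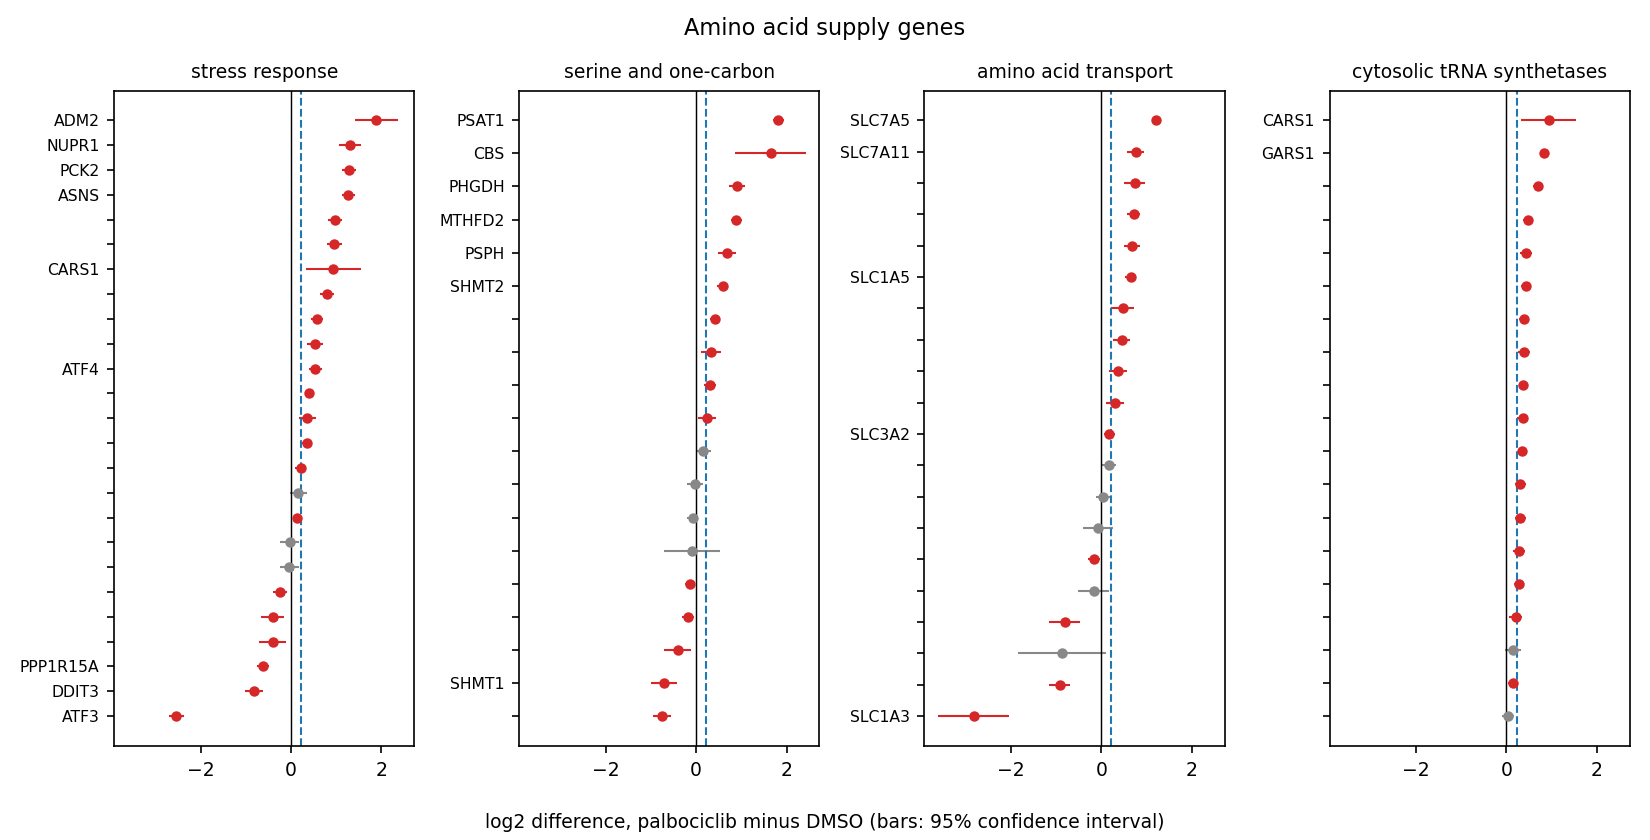
Log2 differences, palbociclib minus DMSO, of the tested genes in 4 lists of amino acid supply, with 95% intervals; red points were called, grey points were not, and the dashed line marks no difference when every library has the same total. Most synthetases and the upper members of the other lists lie to the right of both lines, and ATF3, SLC1A3 and SHMT1 lie to the left. Genes described in the text are labelled.

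Genes of the extracellular matrix, which fibroblasts build and maintain, gave the largest gains in normalized counts, a quantity that weighs long and abundant transcripts most. Over all tested genes, 26% were higher and 22.3% lower, or 8.36% and 46% at the same total. Of 24 collagen chains tested, 16 were higher and 3 lower, or 12 and 5 at the same total. Their median relative to all tested genes was 0.36, and 0.11 with quantile normalization, which sets every library to a common distribution. COL1A1 (1277), a chain of the main fibrillar collagen, was at 166302, 167463 and 163418 with DMSO and 260817, 270148 and 274606 with palbociclib. COL1A2 (1278), its partner chain, was at 127773, 128618 and 124221 with DMSO and 229957, 236606 and 234411 with palbociclib. In both, every palbociclib library was far above every DMSO library, and the log2 differences were 0.70 and 0.88. With quantile normalization COL1A2 was not called (0.09). Both also rose with ruxolitinib against DMSO, by 0.48 and 0.36, and the differences between the drugs were 0.22 and 0.52. Over the chains, 4 were called higher and 0 lower with ruxolitinib against DMSO, beside 1.1% and 3.42% of all tested genes. In the direct test 13 were higher and 5 lower in the palbociclib libraries, beside 22.8% and 17.6%. The basement membrane chains COL4A1 (0.92) and COL4A2 (0.70) rose as well. COL15A1 was the largest of the list at 636, 684 and 687 with DMSO and 1836, 1632 and 1962 with palbociclib, still below the 5113 ± 239.9 normalized counts (SD, n = 3) of proliferating cells. COL10A1 was the lowest and fell by 1.89, at a low level, from 31.0 ± 9.27 to 8.33 ± 5.33 normalized counts (SD, n = 3), followed by COL4A6 (-1.34) and the anchoring fibril chain COL7A1 (-0.81).

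The shares over all tested genes also stand beside the next lists, 26% higher and 22.3% lower (8.36% and 46% at the same total). Of 19 tested enzymes that fold and crosslink collagen, 14 were higher and 2 lower as deposited (8 and 4 at the same total). Their median relative to all tested genes was 0.31, but 0.04 with quantile normalization. LOX (4015), the lysyl oxidase that starts crosslinks, was at 30429, 31407 and 31887 with DMSO and 71724, 63164 and 66715 with palbociclib. It rose by 1.10, with no overlap, and was called higher than with ruxolitinib by 1.11. The collagen-binding glycoprotein SPARC rose by 0.81, and by 0.20 with ruxolitinib. The lysyl hydroxylase PLOD2 rose by 0.67, while LOXL3 fell by 0.42 and the transglutaminase TGM2 by 0.30. Elastic fibre, proteoglycan and matricellular genes were more mixed, with 17 higher and 5 lower of 34 (12 and 7). THBS2 was at 429, 406 and 457 with DMSO and 1348, 1106 and 1261 with palbociclib. Its palbociclib libraries were well above all DMSO libraries, and the increase, 1.52, was the largest of the list. The proteoglycan decorin, DCN, was at 12686, 13337 and 13717 with DMSO and 25861, 27925 and 26730.0 with palbociclib, and elastin, ELN, at 104, 110.1 and 118 with DMSO and 246, 248 and 236 with palbociclib. Both had groups far apart, with log2 differences of 1.02 and 1.13. Periostin, POSTN, was the strongest exception at 727, 714 and 724 with DMSO and 159, 111 and 135 with palbociclib. It fell by 2.43, and tenascin C, TNC, by 0.88. Fibronectin, FN1, was at 188444, 188752 and 196353 with DMSO and 274132, 186601 and 247216 with palbociclib. Library A120 lay at the DMSO level and the others above it, so FN1 was not called (0.29, adjusted p 0.0721; -0.34 with quantile normalization) but was without A120 (0.45, adjusted p 0.0018).

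Most contractile genes rose. Of 24 tested, 20 were higher and 1 lower, with a median log2 difference of 0.55. At the same total 17 were higher and 3 lower, with a median of 0.32. The shares over all tested genes were 26% and 22.3% as deposited, and 8.36% and 46% at the same total. Relative to all tested genes the median was 0.53, and 0.17 with quantile normalization. ACTA2 (59), the smooth muscle actin that marks myofibroblasts, was at 4789, 5132 and 5306 with DMSO and 12330.2, 13742 and 11634 with palbociclib. The groups did not overlap, and the log2 difference was 1.31 (SE 0.06, adjusted p 1.72e-10). Calponin 1, CNN1, was at 1925, 2146 and 2117 with DMSO and 3914, 4336 and 4281 with palbociclib, and transgelin, TAGLN, at 21794, 23743 and 22356 with DMSO and 39770.5, 49375 and 42178 with palbociclib. They rose by 1.02 and 0.95, the latter with A120 the highest. None of these 3 was called with ruxolitinib against DMSO, at -0.20, -0.19 and -0.12. In the direct test, 21 of the 24 genes were higher with palbociclib than with ruxolitinib, against 22.8% of all tested genes. Desmin, DES, was the exception, falling by 1.09.

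Many contractile genes are read by serum response factor through an element called the CArG box. The promoter of ACTG2 (72), another smooth muscle actin, is shown as an example with both its matches in capitals, 110 and 73 bases before the start (RefSeq, GRCh38.p14, chr2:73892758-73893007, plus strand).
ACTG2: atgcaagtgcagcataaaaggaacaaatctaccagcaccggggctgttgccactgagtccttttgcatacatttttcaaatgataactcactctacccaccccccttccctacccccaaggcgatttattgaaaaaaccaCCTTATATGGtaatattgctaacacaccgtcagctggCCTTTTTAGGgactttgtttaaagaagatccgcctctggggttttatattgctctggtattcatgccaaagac
The motif was found on either strand in 5 of 21 promoters of the contractile list (23.8%), in 1.05% of promoters of tested genes and in 1.14% of all. Among genes higher at both scalings it was in 17 of 766 (2.22%), and among those that fell at least 2-fold in 9 of 460 (1.96%). The contractile list was drawn up by function, so its share describes the list. ACTG2 was at 6806, 7735 and 7557 with DMSO and 12346, 14968 and 13038 with palbociclib. All palbociclib libraries were higher, at a log2 difference of 0.87. Actins resemble each other in sequence, and how reads that fit several genes were counted is not given in the sources used here.

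Cytosolic ribosomal protein genes rose as a block. All 53 tested were higher and 41 of them also at the same total, within a narrow range of log2 differences from 0.29 (RPS19) to 0.77 (RPLP0). The call of RPS19, a protein of the small subunit, was lost without any 1 of A116, A117, A118, A120 and A121 (adjusted p 0.0675 to 0.174). RPLP0, a protein of the ribosomal stalk, was at 12272, 13382 and 12983 with DMSO and 20578, 24793 and 20611 with palbociclib. A120 was the highest library there, and across the list the median against DMSO, relative to all tested genes, was 0.34 in A119, 0.68 in A120 and 0.46 in A121. Over the 3 libraries this relative median was 0.49, and 0.23 with quantile normalization. These genes are short and have many processed copies in the genome, so their counts are uncertain, and the part of gene length in this result was not tested. With ruxolitinib the list's median was 0.21. Of the 53 genes, 43 were higher with palbociclib than with ruxolitinib, against 22.8% of all tested genes. Translation factors rose less, 19 higher and 0 lower of 27 as deposited but 7 and 5 at the same total. The shares over all tested genes were 26% and 22.3% as deposited, and 8.36% and 46% at the same total. EIF2S2, the beta subunit of the initiation factor eIF2, was the largest at 0.60 and EIF4A2, a helicase, the smallest at -0.06, which was called lower at the same total (-0.29).

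Other lists had fewer raised genes at the same total, as did the whole table (8.36% higher and 46% lower), while their medians relative to all tested genes differed little between these scalings, at 0.17 under both for secretory traffic (-0.023 with quantile normalization), 0.28 under both for cholesterol genes and 0.23 under both for oxidative phosphorylation. Of 44 genes of traffic from the endoplasmic reticulum to the Golgi, 28 were higher and 0 lower, against 10 and 8 at the same total. SSR3, a subunit of the translocon-associated complex, was the largest at 0.67 and GOLGB1, a Golgi tether, the smallest at -0.25, not called as deposited but called lower without A119 (-0.40, adjusted p 0.00604). Of 23 genes of cholesterol synthesis and uptake, 15 were higher and 1 lower, and 8 and 4 at the same total. MSMO1, a demethylase of the pathway, rose by 0.70, and HSD17B7 fell by 0.74. Nuclear-encoded subunits of oxidative phosphorylation gave 36 higher and 0 lower of 52, but 3 and 5 at the same total, and without A120 their median relative to all tested genes was 0.15.

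Transcripts of the mitochondrial genome, which encodes a few subunits of the same complexes and also ribosomal and transfer RNAs, were higher under both scalings. Over all tested genes, 26% were higher and 22.3% lower, and 8.36% and 46% at the same total. Of 31 mitochondrial transcripts tested, 22 were higher and none lower, with a median of 0.52. At the same total 16 were higher and none lower, with a median of 0.29. Many of the 31 were transfer RNAs, several of them at low counts. The largest gain in normalized counts was in the gene listed as COX1 with Entrez number 4512, the mitochondrially encoded subunit of cytochrome c oxidase, at 105030, 112067 and 117557 with DMSO and 187445, 191001 and 181742 with palbociclib. The groups did not overlap, with a log2 difference of 0.74, and on that scale the isoleucine tRNA TRNI was highest (1.00). Copies of mitochondrial sequence in the nuclear genome make these counts uncertain.

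**Figure D4:**
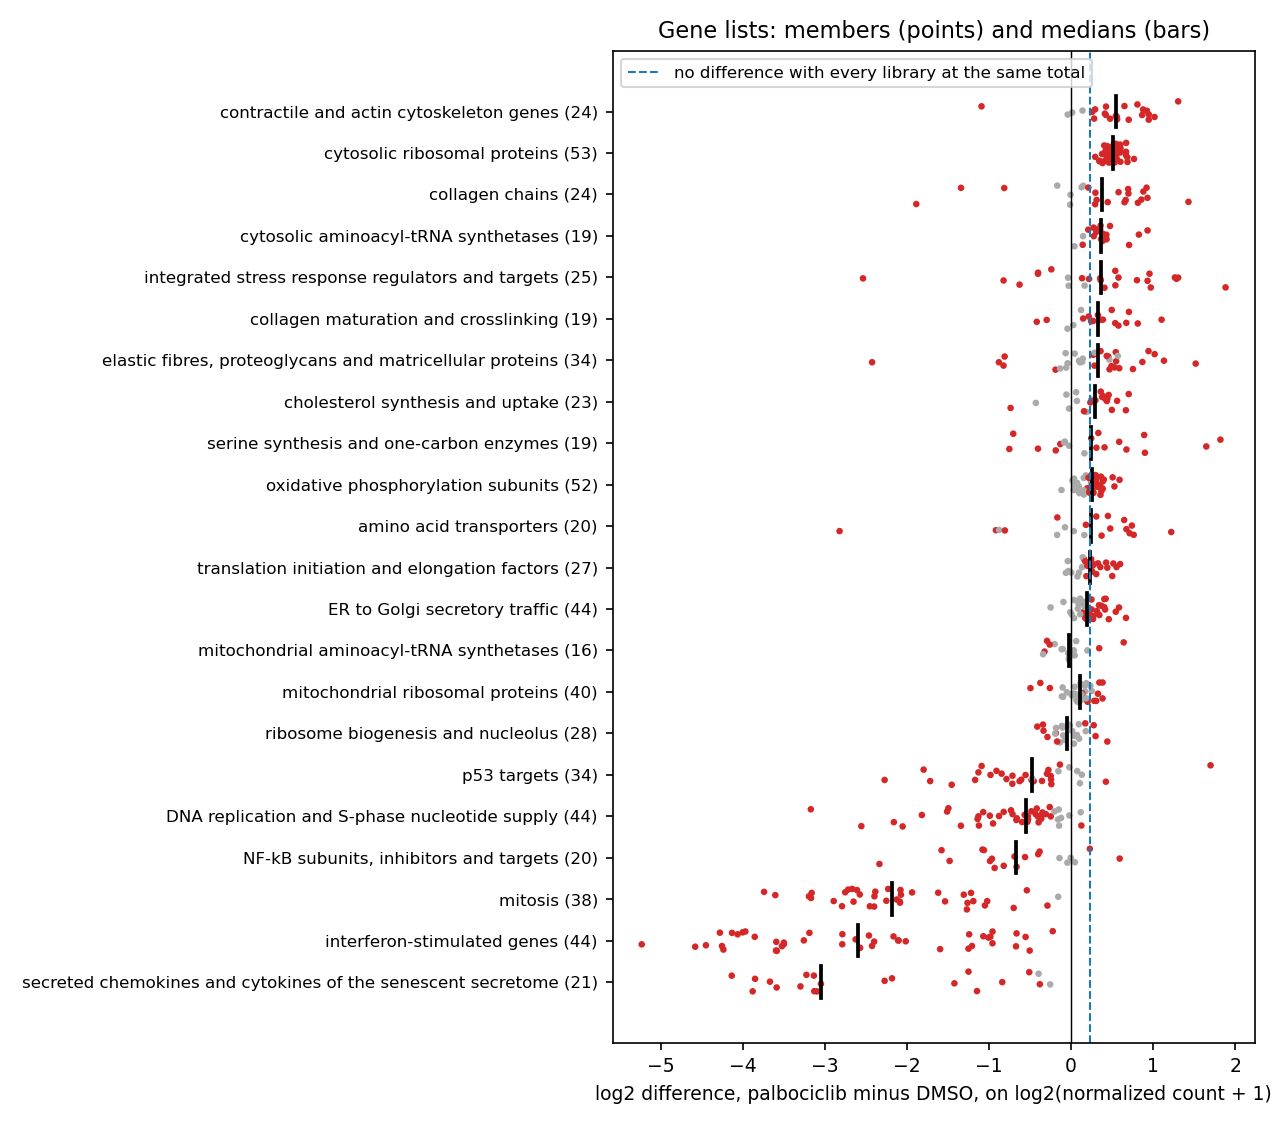
Log2 differences, palbociclib minus DMSO, of the tested members of 22 gene lists (points; red called, grey not called) with list medians (bars) and the number tested in brackets; the dashed line marks no difference when every library has the same total. Contractile, ribosomal and collagen medians lie right of both lines, while the medians of mitosis, interferon and chemokine lists lie at -2.18, -2.60 and -3.05.

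The gains behind the rise of the summed values came from many genes, with a large part in a small number of them. Gains added up to 3489526 normalized counts over 6927 genes and losses to -674524 over 7876. The 10 largest gains held 16.5% of all gains and the 100 largest 46.0%. These 10 were COL1A2, COL1A1, COX1, IGFBP3, ACTB, FN1, SPARC, LOX, the mitochondrial ribosomal RNA RNR2 and THBS1, so they were matrix genes, 2 mitochondrial transcripts, a binding protein and an actin. Collagen chains went from 3.25 ± 0.0611% of the summed values to 4.24 ± 0.118% (SD, n = 3), mitochondrial genome transcripts from 3.30 ± 0.115% to 4.15 ± 0.113%, and contractile genes from 2.44 ± 0.0203% to 3.12 ± 0.0398%. In each, the 3 palbociclib libraries lay above the 3 DMSO libraries. A share does not depend on the scaling. An exact permutation test of 3 against 3 libraries cannot give a two-sided p below 0.1. The largest losses were in CDKN1A, the kinase inhibitor p21 (-14372 normalized counts on average), and PLAU, the urokinase protease (-10535), with IFI6 and FTL also among the 5 largest.

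**Figure D5:**
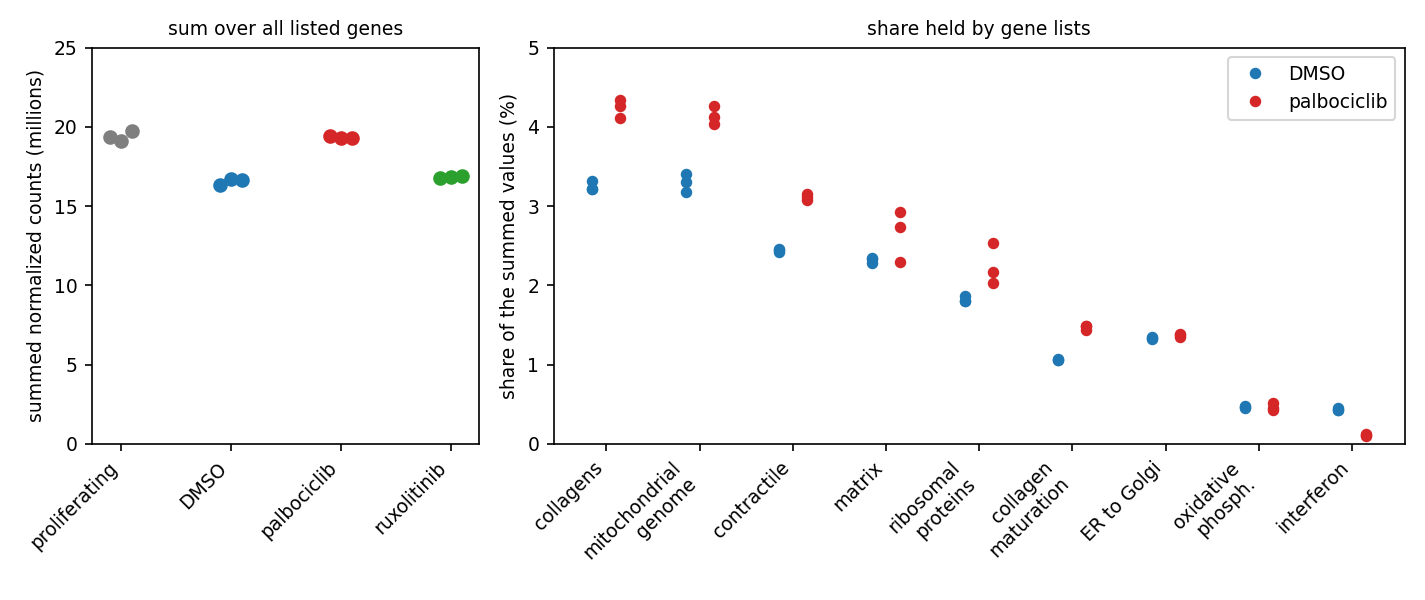
Left, summed normalized counts over all listed genes, 1 point per library in each of 4 groups; right, the share of that sum (%) held by gene lists in the DMSO and palbociclib libraries. The palbociclib sums lie above all DMSO sums, and the collagen, mitochondrial genome and contractile shares are higher in every palbociclib library.

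Among genes of the cell cycle, those of mitosis fell nearly uniformly. The list of cyclins, CDKs, CDK inhibitors, the RB family and E2F factors was mixed. Of its 28 tested genes, 3 were higher and 13 lower (1 and 20 at the same total), with a median of -0.14. The shares over all tested genes were 26% higher and 22.3% lower (8.36% and 46% at the same total). Of 38 mitosis genes tested, 0 were higher and 37 lower, with a median of -2.18. KIF20A (10112), a kinesin of cytokinesis, was the lowest at 374, 354 and 392 with DMSO and 31.0, 28.5 and 22.2 with palbociclib. All palbociclib libraries were far below the DMSO level, a log2 difference of -3.74. That level was already far below the 3562 ± 205 normalized counts (SD, n = 3) of proliferating cells. AURKA, a centrosomal kinase, was the only member not called, at -0.16 (adjusted p 0.0676), and was called lower at the same total, by edgeR and without A118. DNA replication genes fell less, 1 higher and 36 lower of 44, with a median of -0.55. RRM2 (6241), the ribonucleotide reductase subunit that supplies deoxynucleotides, was at 1520.4, 1615 and 1622 with DMSO and 183, 173 and 169.7 with palbociclib. It led the list at -3.17. The single raised gene was RPA1, at 0.13 (adjusted p 0.0377), which was not called at the same total (-0.10), by edgeR, or without any 1 of A116 to A120 (adjusted p 0.0552 to 0.108).

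The promoters of MKI67 and PCNA are printed because the lists of mitosis and replication differ in which element they carry. In MKI67 (RefSeq, GRCh38.p14, chr10:128126424-128126673, minus strand) the capitals mark TTTGAA, the CHR, at 47 and 29 bases before the start. In PCNA (5111), the sliding clamp of DNA polymerase (chr20:5126623-5126872, minus strand), they mark the reverse complement of TTTNNCGC, an E2F motif, at 59 bases.
MKI67: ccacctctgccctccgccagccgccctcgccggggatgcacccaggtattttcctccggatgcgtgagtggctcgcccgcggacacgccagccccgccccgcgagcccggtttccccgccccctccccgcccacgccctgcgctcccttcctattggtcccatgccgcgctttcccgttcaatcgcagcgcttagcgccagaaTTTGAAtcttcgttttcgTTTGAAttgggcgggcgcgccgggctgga
PCNA: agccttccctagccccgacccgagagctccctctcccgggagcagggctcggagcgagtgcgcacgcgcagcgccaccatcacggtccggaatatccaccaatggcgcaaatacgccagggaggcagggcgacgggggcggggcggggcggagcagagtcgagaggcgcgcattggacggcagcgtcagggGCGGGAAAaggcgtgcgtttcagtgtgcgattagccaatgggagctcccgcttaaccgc
Counted on both strands, the CHR was in 18 of 32 promoters of the mitosis list (56.2%) and 1 of 38 of the replication list (2.63%), against 8.6% for tested genes and 13.6% for all. The E2F motif was in 3 of 32 (9.38%) and 16 of 38 (42.1%), against 9.21% and 5.93%. Both lists were drawn up by function, so these shares describe the lists. Over the 460 promoters of genes that fell at least 2-fold, the CHR was in 16.5% and the E2F motif in 11.3%. PCNA was at 1230.4, 1225 and 1108 with DMSO and 475, 632 and 519.6 with palbociclib. All palbociclib libraries were far below all DMSO libraries, a log2 difference of -1.14.

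All 44 interferon-stimulated genes tested fell, with a median of -2.60. With ruxolitinib against DMSO the list's median was -2.68, and 43 were called lower, beside 3.42% of all tested genes. RSAD2, the antiviral enzyme viperin, was at 225, 214 and 207 with DMSO and 0, 13.1 and 12.4 with palbociclib. It was lowest in the list at -5.23, but A119 held no read, and without that library the log2 difference was -3.97. OAS2, a sensor of double-stranded RNA, was at 589, 643 and 657 with DMSO and 27.7, 35.0 and 32.0 with palbociclib. Its palbociclib libraries were far below DMSO but above the 5.75 ± 2.87 normalized counts (SD, n = 3) with ruxolitinib, a direct difference of 2.35. Between the inhibitors, 23 genes of the list were higher with palbociclib and 8 with ruxolitinib, beside 22.8% and 17.6% of all tested genes. GBP3, a guanylate-binding protein, fell least at -0.22.

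Secreted chemokines and cytokines also fell, with 19 of 21 lower, 0 higher and a median of -3.05. Relative to all tested genes the median was -3.07, but -1.47 over members with a mean of at least 50. CXCL1 (2919), a neutrophil chemokine, was at 119, 156 and 134 with DMSO and 6.64, 6.57 and 7.11 with palbociclib. Its palbociclib libraries were almost equal and near the 3.66 ± 3.26 normalized counts (SD, n = 3) of proliferating cells, at a log2 difference of -4.14. IL1A, the membrane-bound alarm cytokine, was at 67.3, 62.7 and 57.8 with DMSO and 3.32, 4.38 and 2.66 with palbociclib, and IL1B at 73.2, 93.5 and 93.7 with DMSO and 6.64, 3.28 and 10.7 with palbociclib. Both were down to a few reads per library, at log2 differences of -3.85 and -3.59. CCL2, the monocyte chemokine, was at 911, 912 and 1101 with DMSO and 728, 951 and 777 with palbociclib. Its groups overlapped and it was not called (-0.25, adjusted p 0.0818), nor was IL15, a lymphocyte growth factor (-0.40, adjusted p 0.0775). Without A120 both were called lower, at -0.37 and -0.54 (adjusted p 0.012 and 0.0293). In the direct test, 19 of 21 were lower with palbociclib than with ruxolitinib and 0 higher, where 17.6% of all tested genes were lower. NF-kB is the factor behind many of these cytokines. Of 20 of its subunits, inhibitors and targets, 14 were lower and 2 higher than with DMSO (17 and 1 at the same total). The shares over all tested genes were 22.3% lower and 26% higher (46% and 8.36%). The inhibitor TNFAIP3 fell the most (-2.34), and the adhesion molecule VCAM1 went up (0.59).

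The promoters of IFIT1, an interferon-induced RNA-binding protein, and CXCL1 show the elements of these lists. In IFIT1 (RefSeq, GRCh38.p14, chr10:89392373-89392622, plus strand) the capitals mark the reverse complement of the interferon-stimulated response element, searched as GAAA, any 2 bases and GAAA, at 116 and 103 bases before the start. In CXCL1 (chr4:73869143-73869392, plus strand) they mark a pair of overlapping matches to the NF-kB motif, at 79 and 78 bases.
IFIT1: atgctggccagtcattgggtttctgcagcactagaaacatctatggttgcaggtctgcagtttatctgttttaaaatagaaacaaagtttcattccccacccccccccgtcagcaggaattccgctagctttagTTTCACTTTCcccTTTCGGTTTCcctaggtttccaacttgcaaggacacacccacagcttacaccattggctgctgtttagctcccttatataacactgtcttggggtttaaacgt
CXCL1: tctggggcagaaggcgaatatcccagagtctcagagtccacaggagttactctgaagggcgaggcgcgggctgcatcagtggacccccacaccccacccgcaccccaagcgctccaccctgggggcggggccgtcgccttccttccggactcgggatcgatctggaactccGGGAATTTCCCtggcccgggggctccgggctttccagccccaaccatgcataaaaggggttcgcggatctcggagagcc
On either strand the interferon element was in 20 of 35 promoters of its list (57.1%), against 2.34% for tested genes and 3.07% for all. The NF-kB motif was in 9 of 17 of the cytokine list (52.9%), against 11.5% and 9.57%. Here too the lists were drawn up by function, so their shares describe the lists. Over the 460 promoters of genes that fell at least 2-fold, the interferon element was in 7.39% and the NF-kB motif in 14.1%. None of the motifs searched contains another. IFIT1 was at 3422, 3578 and 3360.3 with DMSO and 146, 253 and 266 with palbociclib. The fall of 4.00 left it above proliferating cells at 61.1 ± 15.2 normalized counts (SD, n = 3).

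Targets of p53, the factor that DNA damage activates, mostly fell, 26 lower and 2 higher of 34 (30 and 2 at the same total). The shares over all tested genes were 22.3% lower and 26% higher (46% and 8.36%). GDF15, a stress-induced secreted factor, was at 4369, 4527 and 4446 with DMSO and 778, 1015 and 985 with palbociclib. It fell by 2.27, and MDM2, the ligase that degrades p53, by 1.13. CDKN1A was at 28501, 29824 and 29125 with DMSO and 14000.1, 15903 and 14433 with palbociclib. All palbociclib libraries were lower (-0.98). The 2 that rose were TNFRSF10D, described above, and the RNA-binding protein ZMAT3 (0.42). These 2 were also called higher with ruxolitinib than with DMSO, at 1.79 and 0.36.

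Growth factors and proteases of the senescent secretome divided, as did all tested genes. Of those, 26% were higher and 22.3% lower, and 8.36% and 46% at the same total. Of 26 growth factor and receptor genes, 11 were higher and 10 lower, and 5 and 15 at the same total. The ligands AREG (-2.58) and EREG (-1.85) of the epidermal growth factor receptor fell, and the vessel-stabilizing ligand ANGPT1 rose the most (0.72). Of 21 proteases and their inhibitors, 8 were higher and 8 lower (4 and 12). The collagenase MMP1 (-2.37) and the serpin SERPINB2 (-2.46) fell, while the metalloprotease inhibitor TIMP3 (0.78) rose.

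Markers of other cell types were read in the same libraries. All 17 fibroblast markers were present, 8 higher and 4 lower. Of 12 epithelial markers, 6 had at most 3 reads in each of the 6 libraries, as did 2 of 10 endothelial and 4 of 12 leukocyte markers. NKX2-1 of lung epithelium and TYROBP of leukocytes held no read, and CDH5 of endothelium at most 1. Of the 5 epithelial markers tested, 3 were higher and 1 lower. The keratins KRT18, at 1329 ± 92.8 normalized counts with DMSO and 2912 ± 239.7 with palbociclib (SD, n = 3), KRT8 (0.59) and KRT19 (0.64) rose. The junction protein CLDN4 fell by 0.92, and the adhesion molecule EPCAM had a difference of -0.63 (adjusted p 0.146). Of 5 endothelial markers tested, 1 was higher and 2 lower. The angiopoietin receptor TEK went from 2422 ± 73.8 to 3957 ± 453 normalized counts (SD, n = 3). Among 3 leukocyte markers tested, 0 were higher and 3 lower, with CD68, a lysosomal protein that other cells also make, going from 1232 ± 46.8 to 741 ± 58.8. Their part in the results above was not tested.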

How the data were processed

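Poly(A)-captured RNA was sequenced from 12 libraries in 4 groups of 3. The deposited table holds gene counts that the authors divided by size factors, a signal called normalized counts here. Per the submitters' processing notes, the tools named are Trimmomatic 0.38.1, HISAT2 2.2.1, featureCounts 2.0.3 and DESeq2 2.11.40.8, with the build hg38. Their settings and the handling of reads that fit several genes are not given in the sources used here. Multiplied by 1 factor per library, all 160380 values above 0 came out as whole reads within 0.01 (100%), and depths are sums of those reads. Of 16383 Entrez identifiers, 16357 matched RefSeq. The highest is 140467, and the 4796 of 20056 protein-coding RefSeq genes (23.9%) with higher numbers are not analysed here.

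Libraries were grouped by the group names in the table's columns, which carry library numbers and no replicate numbers. Replicates of each group differed beyond sampling noise. Genes with a mean of at least 10 over the 12 libraries were fitted on log2(value + 1), which understates changes of low genes, with limma 3.58.1 in R 4.3.3, using 4 group means, trended moderated variances and Benjamini-Hochberg adjustment over all tested genes. Intervals are at 95%. The scripts were tested on simulated data. Alternatives were pseudocounts of 0.1 and 5, a minimum mean of 50 or none, a common total, a common upper quartile, quantile normalization, only the 2 groups, limma without the trend, each of 6 libraries left out, and edgeR 4.0.16 and DESeq2 1.42.0 on recovered reads. Scaling to the same total without A120 was added after the data were seen.

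The members and the 58 gene lists (1349 listed genes tested, 17 not in the table) were chosen with earlier results of these data known. Named genes were the 15 largest increases also called at the same total and the 15 largest decreases among called genes, provided that the higher group averaged 100 or more and that the groups did not overlap. To these were added MKI67, CXCL8, PSAT1, INHBB, CDK4 and CDK6, the extremes and exceptions of each list, and the 10 largest gains and 5 largest losses in normalized counts. Other members were named by role after their values were seen. A few genes that these rules name are not reported here. Promoters are from RefSeq (GRCh38.p14) and matched 9163 tested genes.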

Additional observations from a re-analysis of the deposited data

How the results depend on the processing

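Scaling decided the counts. Against 2927 genes higher and 2505 lower as deposited, the same total gave 940 and 5170, and without A120 as well 861 and 5056. With each library left out in turn, 2427 to 2991 were higher and 2102 to 2571 lower. EdgeR on the recovered reads gave 2677 and 2697, DESeq2 2672 and 2592, and the other settings stayed within 1.5 times. List medians relative to all tested genes turned sign by more than the spread between libraries in 9 of 1044 values, namely growth factors (0.01) and endothelial markers (0.14) at a mean of at least 50, and with quantile normalization secretion (-0.023), endoplasmic reticulum folding (-0.04), glycolysis (-0.11), insulin-like growth factor (-0.18), YAP (-0.10), lysosome (-0.019) and autophagy (-0.016) genes. Of 142 genes examined under each setting, 4 that were called in at least 1 of the fits turned sign, namely ACTB (-0.16) with quantile normalization, RPA1 (-0.10, and -0.13 without A120) and SLC3A2 (-0.046 and -0.11) at the same total, and RPS19 (-0.076) at the same total without A120. FN1, not called in either fit, went to -0.34 with quantile normalization, and CDK4 stayed near 0. Quantile normalization, which fits every library to the same distribution, also lowered the medians of most raised lists relative to all tested genes, such as translation factors from 0.21 to 0.05, and lost the calls of COL1A2 (0.09), RNR2 (0.10), IGFBP4, INHBE and LOXL3. The share of gains in the 10 largest ranged from 16.3% to 17.1% over the left-out libraries. The cause was not tested in these. No paired analysis was possible because the columns carry library numbers and no replicate numbers. Genes at a few reads, such as IL1A, are limited by depth.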

Other observations

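Genes not described above gave further values, as counts called at an adjusted p under 0.05 in limma with the same-total counts after them. Over all tested genes 26% were higher and 22.3% lower (8.36% and 46%). Counts near those shares are not particular to a list. Of 25 integrin and laminin genes, 8 were higher and 11 lower (1 and 17). The collagen receptor chain ITGA11 rose the most, by 0.96 on the log2 scale, and the laminin chain LAMA3 fell the most, by 1.04. WNT genes were split, with 11 higher and 10 lower of 25 (5 and 12). The ligand WNT2 was at 18.8, 30.8 and 22.0 with DMSO and 31.0, 63.5 and 52.4 with palbociclib. Its groups nearly touched, at a log2 difference of 0.98. The factor LEF1, which acts at the end of the pathway, was at 60.4, 63.9 and 47.4 with DMSO and 15.5, 23.0 and 14.2 with palbociclib. All its palbociclib libraries were lower (-1.67).

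Genes read by YAP, the factor that responds to tension, gave 9 higher and 2 lower of 20 (3 and 7). ANKRD1 led them at 629, 694 and 602 with DMSO and 1648, 1456 and 1384 with palbociclib. The groups were apart, with a log2 difference of 1.22, and the growth factor-binding CCN2 rose by 0.87. Of 15 genes of the circadian clock, 2 were higher and 10 lower (0 and 12). In the sterol and fatty acid list outside cholesterol synthesis, the desaturase SCD rose by 0.77 while MYLIP, which degrades the low-density lipoprotein receptor, fell by 1.18 and the sterol exporter ABCG1 by 0.91.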
